A study of Mus musculus with 6 samples.

Results

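Copies of the U2 small nuclear RNA (snRNA) of the spliceosome were counted in exosomes of undifferentiated mouse P19 cells (UD-P19) and of neurons made from them (P19N). The copies were the rows of the deposited non-coding RNA table whose transcript is of the snRNA type in GENCODE mouse release 21 and is between 6 bases shorter and 4 bases longer than the 191-base U2 transcript Rnu2-10, which gave 17 of the 5880 transcripts in the table and 17 of its 485 snRNAs. P19 is an embryonal carcinoma cell line. UD-P19 exosomes came from growing cells kept without serum in α-MEM with N2 supplement before the medium was collected, in 3 libraries (replicates 1 to 3). P19N exosomes came from cells that formed embryoid bodies during 4 days of retinoic acid and were then kept in neurobasal medium with glutamine, B27 and N2, in 3 libraries from cultures aged 8, 10 and 12 days (replicates 4, 5 and 6). The labels state that no drug was given, while the study's methods describe 5-fluorouridine with uridine, which stop proliferation, in P19N cultures on day 3 and again on day 8 after the medium of that day was collected. By that schedule the cultures aged 10 and 12 days had a second exposure and the culture aged 8 days had not. Culture medium, retinoic acid, this treatment, culture age and cell state changed together between the groups and cannot be told apart, and within P19N the age cannot be told apart from the replicate. Both groups descend from 1 line, and the table lists non-coding transcripts only, so that the labelled cell types were not checked against marker mRNAs.

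U2 snRNA is the RNA of the U2 small nuclear ribonucleoprotein, which joins the intron after U1 has bound its 5′ end. A short stretch near its 5′ end pairs with the branch point of the intron, and a uridine-rich stretch further on holds the ring of Sm proteins that is loaded in the cytoplasm before the particle returns to the nucleus. Mammalian genomes carry U2 as many gene copies and diverged relatives, so a short read from U2 often matches several of them.

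The sequences of the reference copy Rnu2-10 and of 5 other copies are shown because the counts below turn on the bases in which they differ. They are written as DNA, 5′ to 3′, from the GENCODE release 21 transcripts on GRCm38. In Rnu2-10 the capitals mark the letters TGTAGTA, the branch-point recognition region, and ATTTTTG, the Sm site. In the other copies the capitals mark the bases that differ from Rnu2-10.
Rnu2-10: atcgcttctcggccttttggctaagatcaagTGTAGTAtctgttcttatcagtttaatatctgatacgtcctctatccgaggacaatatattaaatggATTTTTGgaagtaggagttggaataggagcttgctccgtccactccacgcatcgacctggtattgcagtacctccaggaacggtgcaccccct
Gm23444: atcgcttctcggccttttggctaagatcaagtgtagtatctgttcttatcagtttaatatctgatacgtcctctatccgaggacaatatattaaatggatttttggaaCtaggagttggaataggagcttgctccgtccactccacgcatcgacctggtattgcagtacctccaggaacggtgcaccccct
Gm25939: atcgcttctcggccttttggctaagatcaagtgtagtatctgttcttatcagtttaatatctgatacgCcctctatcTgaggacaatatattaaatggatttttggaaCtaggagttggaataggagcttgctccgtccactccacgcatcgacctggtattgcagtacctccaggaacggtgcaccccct
Gm25360: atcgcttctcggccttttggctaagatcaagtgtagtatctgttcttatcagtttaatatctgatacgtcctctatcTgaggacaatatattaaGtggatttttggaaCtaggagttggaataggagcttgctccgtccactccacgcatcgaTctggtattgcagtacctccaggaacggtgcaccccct
Gm22973: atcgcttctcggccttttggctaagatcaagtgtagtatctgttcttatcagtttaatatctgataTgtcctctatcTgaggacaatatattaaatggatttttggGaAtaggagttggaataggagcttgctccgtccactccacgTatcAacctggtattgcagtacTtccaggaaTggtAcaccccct
Gm25202: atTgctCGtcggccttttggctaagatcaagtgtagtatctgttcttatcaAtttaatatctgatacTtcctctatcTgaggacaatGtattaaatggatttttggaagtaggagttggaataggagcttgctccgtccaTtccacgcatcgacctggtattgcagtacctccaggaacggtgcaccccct

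Of the 17 copies, 13 had at least 95% identity to Rnu2-10 over a global alignment, 2 had between 80% and 95%, and 2 had less than 80%. The 13 near-identical copies were all 191 bases long and all carried TGTAGTA at position 32 and ATTTTTG at position 99, counted from the 5′ end on the given strand. Over all 17 copies these letters were found in 15 and 14, and in 0 of the 4 other transcripts of the same length range in the table. The label U2 thus held for the 13 near-identical copies by sequence. At the other end stood Gm26146, which had 48.0% identity, neither motif and a count of 0 in every library.

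The near-identical copies lay in 2 clusters and at 4 further places in the genome (GRCm38). The cluster on chromosome 11 spanned chr11:101604850-101658428 and held 5 copies. Rnu2-10 at chr11:101658238-101658428 (plus strand), Gm24950 at chr11:101641748-101641938 (plus), Gm23971 at chr11:101645740-101645930 (minus) and Gm23849 at chr11:101627366-101627556 (plus) had the same 191 bases, and Gm23849 lay in an intron of Rdm1 on the strand of that gene. Gm26316 at chr11:101604850-101605040 (plus) differed from them by C170T alone, where the base of Rnu2-10 is written before the position and that of the copy after it. The cluster on chromosome 1 spanned chr1:72226240-72255198, between Mreg and Pecr, and held 4 copies. Gm25360 at chr1:72226240-72226430 carried C78T, A95G, G109C and C154T. Gm23472 at chr1:72236946-72237136, Gm24497 at chr1:72244213-72244403 and Gm25939 at chr1:72255008-72255198 lay in an intron of the lincRNA gene D230017M19Rik, and like Gm25360 all were on the plus strand. Gm23472 carried G109C alone and was identical to Gm23444 at chr11:83271498-83271688 (plus), Gm24497 carried G109C and C186A, and Gm25939 carried T69C, C78T and G109C. G109C was thus present in 5 copies, which included all 4 on chromosome 1.

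The other near-identical copies stood alone and outside annotated genes. Gm25813 at chr8:52336915-52337105 (minus) carried C78T and G131C. Gm22973 at chr12:59040335-59040525 (plus), between Gemin2, a gene of the machinery that loads Sm rings, and Trappc6b, differed at 9 bases: C67T, C78T, A107G, G109A, C148T, G152A, C170T, C179T and G183A. Gm25202 at chrX:14315401-14315591 (minus) differed at 8 bases, of which C3T, T7C and C8G lay close to the 5′ end and the others were G52A, G68T, C78T, A88G and C141T. C78T was shared by these 3 copies and was carried by 5 of the 13.

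**Figure D1:**
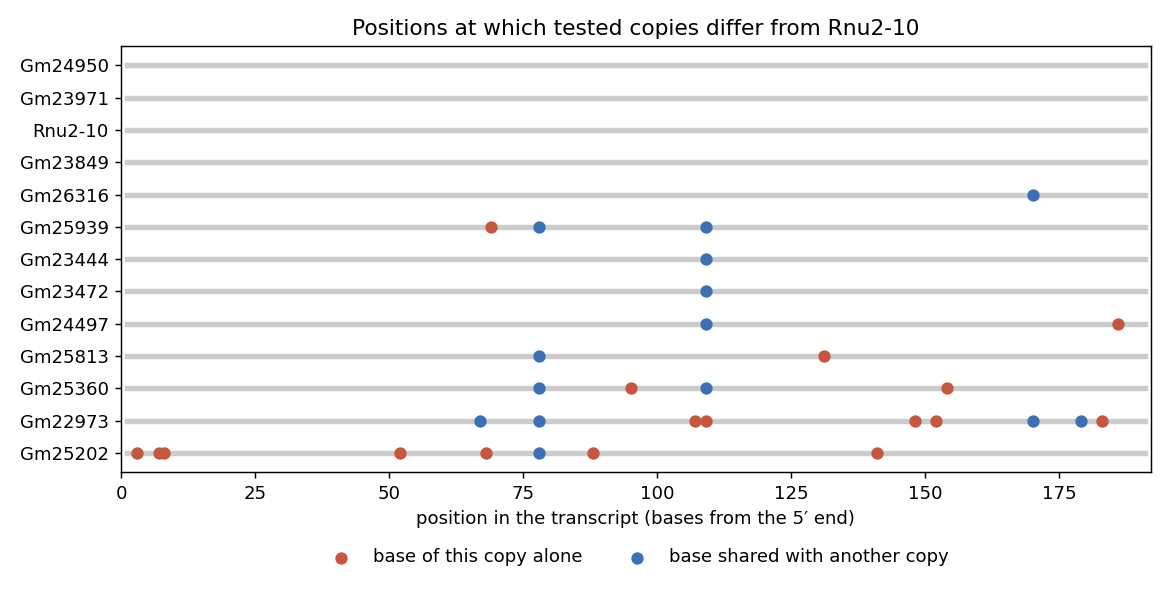
Positions at which each of the 13 near-identical copies differs from Rnu2-10, in bases from the 5′ end of the 191-base transcript (horizontal axis), with 1 grey line per copy. Red points are bases that no other copy aligned without a gap carries and blue points are bases shared with at least 1 other. Gm22973 and Gm25202, with 9 and 8 differing bases, stand apart from the copies with 0 to 4.

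The libraries held between 454499 and 887460 counts in all, and the table was of counts of reads per transcript without normalization. The 17 copies took 89359 counts over the 6 libraries, so that counting error was small for the common copies and large for the rare ones. A second deposited column gives unique counts, which were read as reads that matched 1 transcript only. At 6 of the 13 near-identical copies, the 6 of identical sequence, the unique count was 0 in every library, as this reading requires. Counts of identical copies were not equal. In 11 of 12 cases (2 sets of identical copies in 6 libraries) their SD was below that of separate countings. An SD from 2 or 4 counts can fall below it for separate countings too, and the number to be awaited was not computed. In P19N replicate 4 the 4 copies of the Rnu2-10 sequence held between 4147 and 4181 counts, with an SD of 16.1 against a counting SD of 64.5. The exception was the pair Gm23444 and Gm23472 in UD-P19 replicate 2, with 296 and 254 counts and an SD of 29.7 against a counting SD of 16.6. Because reads of identical copies match more than 1 of them, the copies are not separate observations of the change between the groups. The level of a single copy includes reads of the others.

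U2 copies were higher in P19N exosomes. Summed over the 17 copies, the counts were 4396, 3252 and 4293 in UD-P19 replicates 1 to 3 and 34247, 29537 and 13634 in P19N replicates 4 to 6. After scaling each library to 1000000 counts with its TMM factor (CPM), the sum was 7237 ± 3472 (SD, n = 3) in UD-P19 and 32718 ± 11924 (SD, n = 3) in P19N. The groups did not overlap. In the edgeR quasi-likelihood fit with the copies summed to 1 row, the log2 fold change was 2.20 (SE 0.405, adjusted p = 0.000991), a 4.61-fold difference. The median log2 fold change of all 1286 transcripts tested was 0.21 in the fit without summing. In such bulk exosomal RNA, more U2 in each vesicle and more vesicles that carry U2 cannot be told apart.

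As a part of all counts, the copies made up 0.967%, 0.462% and 0.563% in UD-P19 replicates 1 to 3 and 3.86%, 3.89% and 2.32% in P19N replicates 4 to 6. The means were 0.664% ± 0.268 and 3.35% ± 0.898 (SD, n = 3 each). Every P19N library was above every UD-P19 library, and the exact two-sided permutation test gave p = 0.1, the smallest that 3 against 3 libraries allow (0.15 after Benjamini-Hochberg adjustment over the 3 shares tested). The lowest P19N value was that of the culture 12 days old, an age with 1 library. With the transcript Gm42418 left out of the totals, the shares were 2.42%, 0.907% and 1.65% in UD-P19 and 4.63%, 4.64% and 2.83% in P19N, with means of 1.66% ± 0.758 and 4.03% ± 1.04 (SD, n = 3 each). The groups still did not overlap (exact permutation p = 0.1), but UD-P19 replicate 1 and P19N replicate 6 were close.

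**Figure D2:**
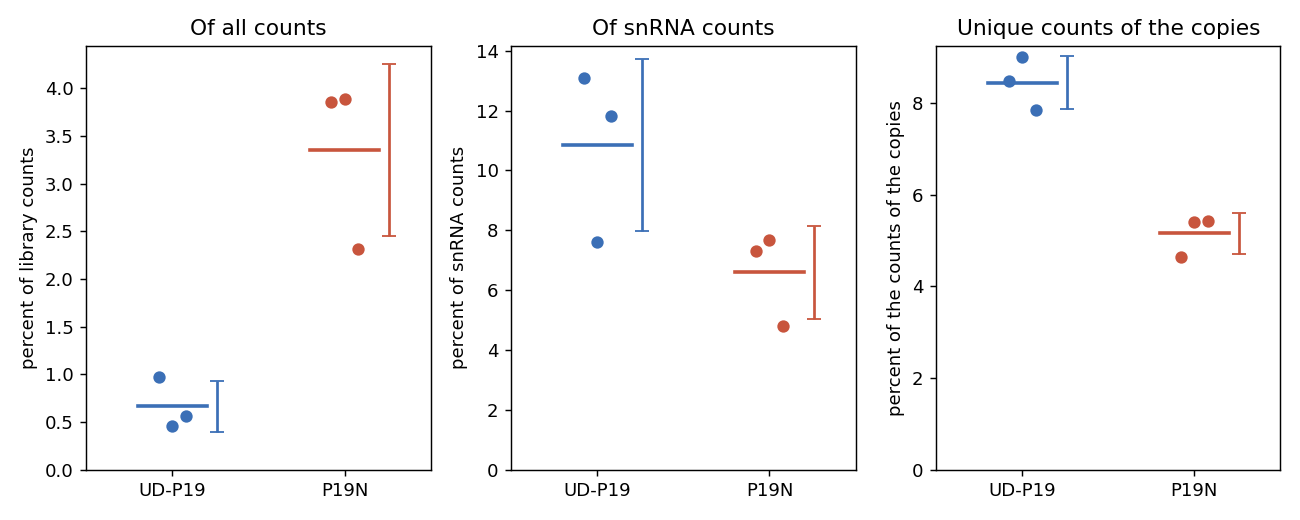
Percent of the library counts taken by the 17 U2-sized copies (left), percent of the snRNA counts they took (middle) and percent of their own counts that were unique (right), in UD-P19 (blue) and P19N (red) exosomes, with 1 point per library, the mean as a line and the SD as a bar beside it. The share of all counts rises from a mean of 0.664% to 3.35% without overlap, the share of snRNA counts overlaps between the groups, and the unique share falls from 8.45% to 5.16% without overlap.

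Among single copies, 13 reached a total of 15 counts and were tested, and 13 of 13 were called higher in P19N at an adjusted p of at most 0.05 by edgeR's quasi-likelihood test. Of the 1286 transcripts tested in all, 15% were called higher and 9.02% lower, 193 and 116 transcripts, which became 178 and 189 with DESeq2 size factors. These shares moved with single libraries. Of the transcripts then tested, 9.71% were called higher and 13.8% lower without UD-P19 replicate 1, and 33.4% and 13.2% without UD-P19 replicate 2. Without P19N replicate 4 they were 10.7% and 6.47%, and without P19N replicate 5 they were 8.97% and 9.99%. In each of these 4 fits 13 copies were called higher. The number of U2 copies called lower was 0, and 0 had a lower level at an unadjusted p under 0.05 by edgeR's quasi-likelihood test, its exact test or DESeq2. In all 13 copies the 3 P19N libraries were above the 3 UD-P19 libraries, which held for 25.2% of the tested transcripts. Because reads are shared between copies, these 13 calls rest on fewer separate measurements. Summed by identical sequence they became 9 sequences, of which 9 were called higher. These 9 still share reads and are not 9 separate measurements. Of the 10044 counts of Gm26316, for example, 80 were unique.

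The 4 copies of the Rnu2-10 sequence had the highest counts. Rnu2-10 had 471, 349 and 492 counts in UD-P19 replicates 1 to 3 and 4147, 3316 and 1457 in P19N replicates 4 to 6. Its mean level was 795 ± 372 CPM in UD-P19 and 3768 ± 1523 CPM in P19N (SD, n = 3 each), with a log2 fold change of 2.25 (SE 0.447, adjusted p = 0.00188 by edgeR). Gm24950, the copy with the highest total count, had 481, 348 and 455 counts in UD-P19 and 4148, 3346 and 1485 in P19N. Its log2 fold change was 2.28 (SE 0.449, adjusted p = 0.00176 by edgeR), within the error of that of Rnu2-10, as it must be for the same sequence. In each group the lowest CPM of these copies was in UD-P19 replicate 2 and in P19N replicate 6. Gm26316, which differs from them by the single change C170T, had 452, 300 and 438 counts in UD-P19 and 4136, 3301 and 1417 in P19N, with a log2 fold change of 2.36 (SE 0.463, adjusted p = 0.00175 by edgeR).

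The copies with G109C had lower counts than the Rnu2-10 copies in each library, and log2 fold changes between 1.93 and 2.07. Gm23444 had 337, 296 and 345 counts in UD-P19 and 2185, 2001 and 1018 in P19N, and its level was 583 ± 239 CPM against 2214 ± 688 CPM (SD, n = 3 each). Its log2 fold change was 1.93 (SE 0.415, adjusted p = 0.00328 by edgeR), the lowest of the 13. Gm23472, of the same sequence on chromosome 1, had 344, 254 and 326 counts in UD-P19 and 2135, 2011 and 1012 in P19N, with a log2 fold change of 1.97 (SE 0.433, adjusted p = 0.00364 by edgeR). Gm25939 had 406, 316 and 381 counts in UD-P19 and 2490, 2409 and 1157 in P19N, with a log2 fold change of 1.95 (SE 0.427, adjusted p = 0.00356 by edgeR). Gm25360 had 283, 177 and 269 counts in UD-P19 and 1803, 1759 and 873 in P19N, with a log2 fold change of 2.07 (SE 0.456, adjusted p = 0.00364 by edgeR). Gm24497, the other copy with G109C, lay at 2.05. In all of these copies the P19N culture 12 days old was the lowest of its group and still above each UD-P19 library. Of the copies without G109C, Gm25813 had a log2 fold change of 2.05, Gm23849 of 2.29 and Gm23971 of 2.28.

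The balance between the Rnu2-10 sequence and the G109C sequence was followed by the mean count of the 4 Rnu2-10 copies over the mean count of Gm23444 and Gm23472. This ratio was 1.39, 1.27 and 1.40 in UD-P19 replicates 1 to 3 and 1.93, 1.66 and 1.44 in P19N replicates 4 to 6. The means were 1.35 ± 0.0700 and 1.67 ± 0.245 (SD, n = 3 each). The groups did not overlap, although UD-P19 replicate 3 and P19N replicate 6 were close, and the exact two-sided permutation p was 0.1 (0.143 adjusted over 10 such measures of the make-up of the copies, which were chosen after the values had been seen).

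Among the 13 tested copies, the pair with the lowest identity to Rnu2-10, Gm22973 at 95.3% and Gm25202 at 95.8%, had the lowest counts. Gm22973 had 51, 32 and 51 counts in UD-P19 and 564, 633 and 386 in P19N, or 82.5 ± 43.7 CPM against 680 ± 150 CPM (SD, n = 3 each). Its log2 fold change was 3.06 (SE 0.489, adjusted p = 0.000312 by edgeR), the highest of the 13. Gm25202 had 23, 58 and 31 counts in UD-P19 and 400, 294 and 81 in P19N, with a log2 fold change of 2.46 (SE 0.530, adjusted p = 0.0033 by edgeR). Without P19N replicate 4 this fell to 1.85, below the 1.94 of Gm26316 in the same fit, and Gm25202 was also below Gm26316 without UD-P19 replicate 1 (2.10 against 2.49) and without UD-P19 replicate 3 (2.09 against 2.14). In Gm25202 the culture 12 days old stood far below the other P19N libraries, at 113 CPM against 471 and 389 CPM, and above the highest UD-P19 library at 68.7 CPM. Whether the fold change of any copy differs from that of another was not tested.

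**Figure D3:**
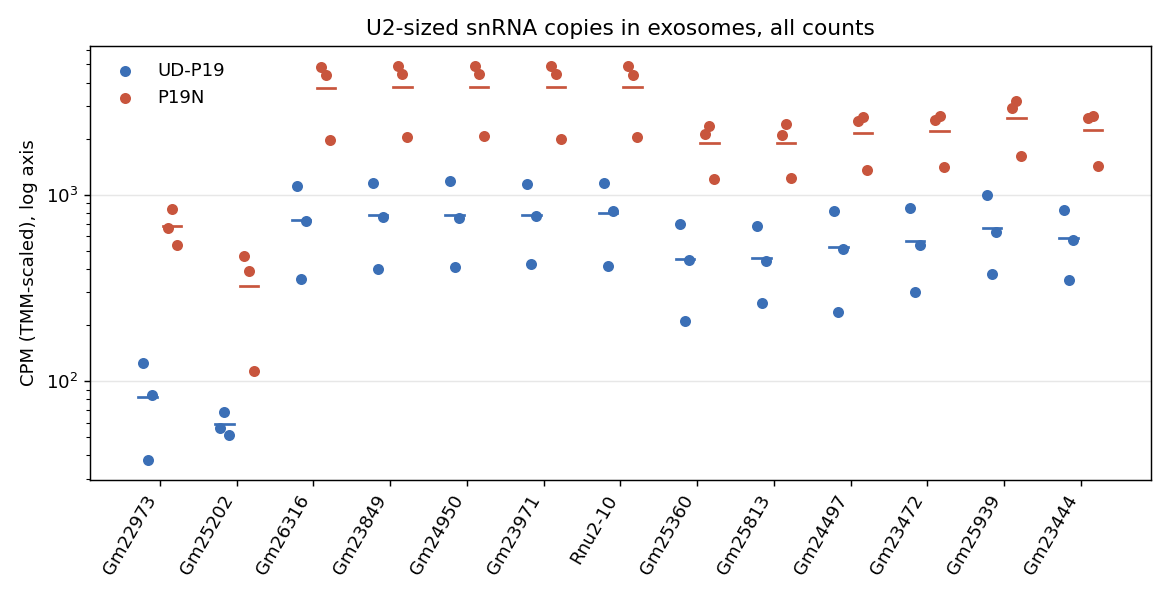
Level of each of the 13 tested copies on the deposited counts in CPM on a log axis, with 1 point per library in UD-P19 (blue, replicates 1 to 3) and P19N (red, replicates 4 to 6) and the group mean as a short line. In every copy the red points lie above the blue ones, and Gm22973 and Gm25202 lie below the other copies of the same group.

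Unique counts separated the copies further. Of the members' 89359 counts 4930 were unique, and 8 copies had any. Gm25939 held 71.2% of them, Gm22973 15.2%, Gm25360 9.90%, Gm25202 1.74% and Gm26316 1.62%. Each of these copies carries at least 1 base around which a window of 31 bases was found in no other matched transcript of the table, for example T69C in Gm25939 and A95G in Gm25360. Such a base was also present in Gm24497 (C186A) and Gm25813 (G131C), which had 10 and 3 unique counts. Only these 5 reached a total of 15 unique counts. On unique counts 24.9% of the 510 tested transcripts were called, 14.3% higher and 10.6% lower, and the 5 copies gave 2 calls, both higher.

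Gm22973 showed the largest rise on unique counts. It had 8, 12 and 10 unique counts in UD-P19 replicates 1 to 3 and 254, 309 and 155 in P19N replicates 4 to 6. Every P19N library was far above every UD-P19 library. Its level on the scale of unique counts was 32.4 ± 4.77 CPM against 648 ± 199 CPM (SD, n = 3 each), and the log2 fold change was 4.31 (SE 0.439, adjusted p = 0.000127 by edgeR). Gm25939 had 225, 152 and 221 unique counts in UD-P19 and 1160, 1215 and 537 in P19N. Its log2 fold change was 1.96 (SE 0.400, adjusted p = 0.00512 by edgeR), next to 1.95 on all of its counts.

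Gm25360, Gm26316 and Gm25202 were not called on unique counts. Gm25360 had 124, 97 and 94 unique counts in UD-P19 and 110, 38 and 25 in P19N. On the CPM scale these were 514, 297 and 257 against 250, 107 and 79.9, so that each P19N library was below each UD-P19 library. Its log2 fold change was -1.27 (SE 0.503, adjusted p = 0.0854 by edgeR), opposite in sign to that on all of its counts. It was the 1 copy of lower level at an unadjusted p under 0.05, by edgeR's quasi-likelihood test, its exact test and DESeq2 alike, and without P19N replicate 4 it was called lower, at -2.01 (adjusted p = 0.040 by edgeR). Without UD-P19 replicate 1 it was -0.90, without P19N replicate 5 -1.04 and without P19N replicate 6 -0.97 (adjusted p = 0.262, 0.281 and 0.194 by edgeR). Gm26316 had 6, 24 and 9 unique counts in UD-P19 and 17, 12 and 12 in P19N, with a log2 fold change of -0.16 (SE 0.567, adjusted p = 0.866 by edgeR). Most of its UD-P19 unique counts came from replicate 2, and without that library its log2 fold change was 0.60 (adjusted p = 0.306 by edgeR). Gm25202 had 6, 4 and 1 unique counts in UD-P19 and 46, 22 and 7 in P19N, and its log2 fold change of 2.31 (SE 0.784, adjusted p = 0.0524 by edgeR) rested on few reads. It was called by edgeR's exact test (adjusted p = 0.0281) and by DESeq2 (adjusted p = 0.0345), and it was called without UD-P19 replicate 1 (adjusted p = 0.0297 by edgeR) or without P19N replicate 6 (adjusted p = 0.0423 by edgeR). It was not called without UD-P19 replicate 2, UD-P19 replicate 3, P19N replicate 4 or P19N replicate 5 (adjusted p = 0.0559, 0.125, 0.28 and 0.122 by edgeR), and its log2 fold change was lowest, at 1.64, when P19N replicate 4 was left out and highest, at 3.08, when UD-P19 replicate 1 was.

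**Figure D4:**
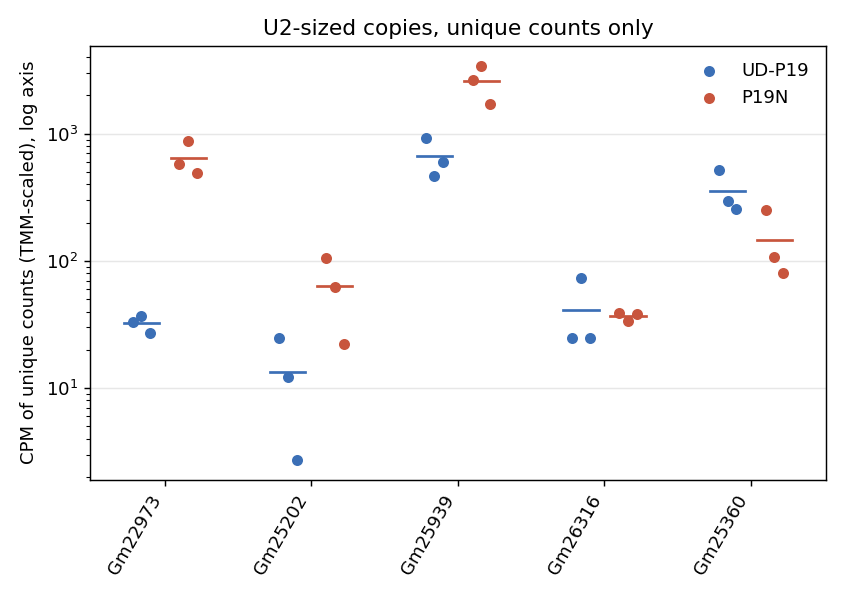
Level of the 5 copies with at least 15 unique counts, in CPM of unique counts on a log axis, with 1 point per library in UD-P19 (blue) and P19N (red) and the group mean as a short line. Gm22973 and Gm25939 are higher in every P19N library, Gm25360 is lower in every P19N library, and the groups overlap for Gm25202 and Gm26316.

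**Figure D5:**
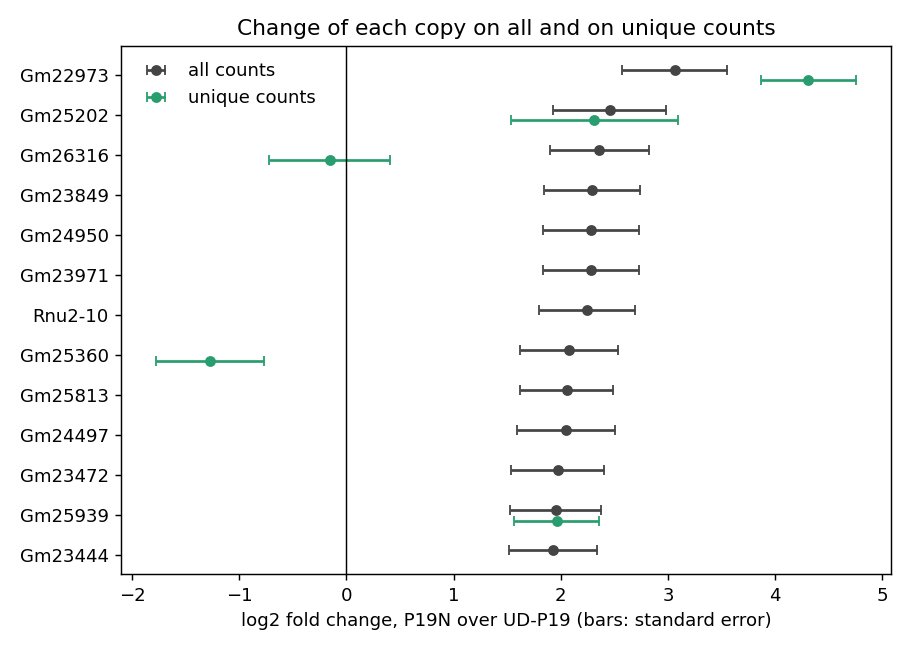
Log2 fold change of each tested copy, P19N over UD-P19, from the edgeR fit on all counts (dark) and, for the 5 copies with enough of them, on unique counts (green), with the SE as bars. On all counts the 13 copies lie between 1.93 and 3.06, while on unique counts they run from -1.27 for Gm25360 to 4.31 for Gm22973.

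The make-up of the unique counts accordingly differed between the groups. Gm25360 gave 33.2%, 33.1% and 27.9% of the copies' unique counts in UD-P19 replicates 1 to 3 and 6.92%, 2.38% and 3.38% in P19N replicates 4 to 6. Gm22973 gave 2.15%, 4.10% and 2.97% in UD-P19 and 16.0%, 19.3% and 20.97% in P19N. Gm25939 gave the most in every library, 59.3% ± 6.91 in UD-P19 and 73.9% ± 1.87 in P19N (SD, n = 3 each). None of these 3 shares overlapped between the groups, with an exact two-sided permutation p of 0.1 for each (0.143 adjusted over the 10 measures). The shares of Gm26316 and Gm25202 overlapped (exact permutation p = 0.2 and 0.5).

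The unique part of a copy's own counts moved in opposite directions. Of the counts of Gm25360, 44.5% ± 9.95 were unique in UD-P19 and 3.71% ± 2.10 in P19N, while for Gm22973 the percentages were 24.3% ± 11.6 and 44.7% ± 4.34 (SD, n = 3 each, no overlap, exact permutation p = 0.1 for both). For Gm25939 they were 53.8% ± 5.14 and 47.8% ± 2.27 and overlapped. Over all 17 copies 8.45% ± 0.581 of the counts were unique in UD-P19 and 5.16% ± 0.446 in P19N (SD, n = 3 each, exact permutation p = 0.1, 0.15 adjusted over the 3 shares). In the whole table the unique share moved the same way, from 71.5% ± 8.30 to 34.6% ± 3.40, and its part in the values of the copies was not tested. The share of the copies' counts in the deposited exact column, read as matches without a mismatch, was 75.4% ± 5.51 in UD-P19 and 81.0% ± 0.480 in P19N (SD, n = 3 each, exact permutation p = 0.1, 0.143 adjusted over the 10 measures). In the whole table it moved the same way, from 53.9% ± 8.55 to 61.6% ± 3.01 (SD, n = 3 each), with overlap.

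The other snRNAs of the spliceosome were sorted by transcript length, and of these classes only the U1-sized was called when summed. With each class summed to 1 row, U2-sized copies had a log2 fold change of 2.12 (SE 0.414, adjusted p = 0.00311 by edgeR) and U1-sized snRNAs, the RNAs that find the 5′ end of introns, of 3.87 (SE 0.306, adjusted p = 6.1e-06 by edgeR). Of 37 tested U1-sized transcripts 33 were called higher, where 15% of all tested transcripts were called higher and 9.02% lower. The U4-sized class, whose RNA keeps U6 inactive by pairing, had -0.42 (SE 0.492, adjusted p = 0.58 by edgeR) with 4 tested. The U5-sized class, which holds the exons together, had -0.19 (SE 0.327, adjusted p = 0.732 by edgeR), with 1 of 9 called higher and 1 lower. The U6-sized class, which is part of the catalytic centre, had 1.22 (SE 0.471, adjusted p = 0.0805 by edgeR). Of 123 tested, 5 were called higher and 1 lower, or 4.88% called against 24% of all tested transcripts. The median log2 fold change of the tested U6-sized transcripts was 1.33, against 0.21 for all tested transcripts. The snRNAs outside these length classes had 0.52 (SE 0.367, adjusted p = 0.328 by edgeR) when summed. Of 17 tested, 8 were called higher and 0 lower, or 47.1% called against 24% of all tested transcripts. Gm25106 and Gm23744, which resemble U2 in part, were among these 8. They had 2 and 0 unique counts over the 6 libraries. Whether U2 differed from these classes was not tested.

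The part that the U2-sized copies took of all snRNA counts was 13.1%, 7.61% and 11.8% in UD-P19 and 7.32%, 7.67% and 4.80% in P19N, with means of 10.8% ± 2.87 and 6.60% ± 1.56 (SD, n = 3 each). The groups overlapped and the exact two-sided permutation p was 0.2 (0.2 adjusted). With the U1-sized rows left out of the total, the share was 18.7% ± 2.41 in UD-P19 and 42.8% ± 4.45 in P19N (SD, n = 3 each) and the groups did not overlap.

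Small Cajal body RNAs guide the chemical modification of U2 in the nucleus, and of the 7 looked for by name (Scarna1, Scarna2, Scarna4, Scarna8, Scarna9, Scarna13 and Scarna15) 4 were found in the table. Of these 4, 3 were called higher, against 15% of all tested transcripts. Of the 5 further Scarna transcripts that were tested, 3 were also called higher and 2 were not called. Scarna2 had 34, 40 and 51 counts in UD-P19 and 294, 362 and 107 in P19N, with a log2 fold change of 2.19 (SE 0.504, adjusted p = 0.005 by edgeR). Scarna8 had 2.41 (SE 0.485, adjusted p = 0.00202 by edgeR) and Scarna13 had 1.95 (SE 0.540, adjusted p = 0.0145 by edgeR). Scarna9 had 13, 19 and 22 counts in UD-P19 and 17, 9 and 6 in P19N, with a log2 fold change of -1.14 (SE 0.558, adjusted p = 0.142 by edgeR).

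The 4 copies that were not tested were barely detected. Gm24763, in an intron of Tenm1 on the opposite strand, had 12 counts in all and 86.4% identity to Rnu2-10, and Gm26108 had 2 counts and 90.1%. Gm25259, in an intron of Lrfn3 on its strand, and Gm26146 had 0, where a count of 0 allows up to 3 counts in a library. All 4 lay below 95% identity to Rnu2-10, and the 13 copies that reached 15 counts were the 13 near-identical ones.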

How the data were processed

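Exosomal small RNA of 3 UD-P19 and 3 P19N exosome preparations was sequenced from 1 library each. The study calls the preparations independent biological replicates, and its methods describe repeated collection of medium from P19N. Whether the P19N preparations came from separate cultures or from the same one at successive ages is not stated. Per the study's methods, the authors trimmed adaptors, merged read pairs and matched the reads to non-coding transcripts of GRCm38 in CLC Genomics Workbench (version not given in the sources used here), and they deposited counts per transcript without normalization, with unique and exact counts in further columns that are not defined there. How reads that match several transcripts were divided is not stated. Transcript types, lengths, sequences and positions came from GENCODE mouse release 21 (GRCm38), in which 5777 of 5880 identifiers were found. With R 4.3.3 and edgeR 4.0.16, TMM factors were computed and a quasi-likelihood F test was run on the 1286 transcripts that reached 15 counts over the 6 libraries, with calls at a Benjamini-Hochberg adjusted p of 0.05 or less. Unique counts were treated likewise. SEs are the absolute log2 fold change over the square root of F. Library totals ran from 454499 to 887460 counts, and intervals from replicates do not separate counting error from culture. Data were simulated with a dispersion of 0.2 (0.186 in the deposited counts). Of 200 transcripts changed by a log2 fold change of 1, 2 and 3, the fit recovered 2%, 76% and 98%. The changed transcripts were drawn from those with higher mean counts, so recovery at low counts was not measured. Each transcript was simulated separately, without reads shared between copies. Differences in shares were tested by exact permutation (two-sided, 20 relabellings). Alignments used Biopython 1.88 (match 1, mismatch -1, gap opening -2, gap extension -0.5), and DESeq2 1.42.0 and edgeR's exact test were alternatives. Other alternatives were count filters, scalings, unique counts, identical sequences summed and each library left out.

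Copies, classes and lists were chosen with earlier results of these data known. Copies named with counts were Rnu2-10, Gm24950, Gm23444, the copy with the highest count, the 3 with the highest unique counts, and the 3 tested copies at either end of the log2 fold changes. Columns of the authors' own means, fold changes and p-values were not used.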

Additional observations from a re-analysis of the deposited data

Results flagged for a closer look

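Outside the 17 copies, 3 rows of the table that the study's gene list assigns to the U2 family have identifiers that are not in GENCODE release 21, so that their length and sequence are not known here. They are not among the 17 copies and entered the summed value only as an alternative. As single rows they were among the 1286 transcripts tested. All were called higher in P19N at an adjusted p of at most 0.05 by edgeR, where 15% of all tested transcripts were called higher. Their log2 fold changes were 1.97, 1.87 and 1.97. The calls use the values by which the rows were singled out and add no separate support. These rows were singled out because their counts in P19N exosomes lay above the level in UD-P19 exosomes. Their mean counts were 1721, 1719 and 1725 in P19N libraries against 312, 338 and 311 in UD-P19 libraries (n = 3 each). In CPM the means were 2189 ± 725, 2189 ± 729 and 2196 ± 685 against 562 ± 249, 602 ± 244 and 562 ± 257 (SD). Unique counts were 0 for the rows with means of 1721 and 1725. The row with a mean of 1719 had 18, 106 and 32 unique counts in UD-P19 replicates 1 to 3 and 56, 44 and 43 in P19N replicates 4 to 6, and its highest value was in UD-P19 replicate 2.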

How the results depend on the processing

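The number of copies called stayed at 13 under other count filters (14 copies tested at a total of 5 counts, 15 with no filter). It also stayed at 13 under other scalings and tests, a stricter threshold and each library left out. Once identical sequences were summed it was 9 of 9, and these 9 still share reads. On counts, 208 of 208 values of single copies kept their direction and call, between 1.56 and 3.26 on the log2 scale. The summed log2 fold change ran from 1.62 on unique counts to 2.49, and from 1.80 to 2.49 with each library left out, with adjusted p between 8.97e-09 and 0.012 by edgeR or DESeq2. With DESeq2 size factors in place of TMM, the median over the whole table moved from 0.21 to 0.05 on the log2 scale and that of the copies from 2.25 to 2.05, and with Gm42418 left out they were -0.02 and 2.00, with 174 transcripts called higher and 196 lower. Without UD-P19 replicate 2 the median over the table was 0.60 and that of the copies 2.07. With the 3 unmatched U2 rows the summed value was 2.16, and with U2-like snRNAs of other lengths as well 2.25, both chosen after the data were seen. On unique counts, Gm26316 had -0.16, Gm25360 had -1.27 and Gm25202 had 2.31 with an adjusted p of 0.0524 by edgeR, and between 2 and 3 copies were called. The P19N minus UD-P19 difference in the share of snRNA counts, -4.25 percentage points, became 2.49 on unique counts and 24.1 with U1-sized rows left out, and ran from -5.87 to -3.12 with each library left out. The cause of the change on unique counts was not tested. No paired analysis was possible because the groups share no replicate numbers. With 3 libraries per group, a permutation test cannot reach 0.05. Gm25202 and Gm26316 had at most 46 and 24 unique counts in any library, so that their values carry a large counting error.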

Other observations

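Outside the length range, 7 snRNAs resembled U2 in part. Of these, 5 had between 0 and 9 counts over the 6 libraries and 2 reached 15 counts, Gm25106 and Gm23744. Gm25106 at chr11:98473675-98473808 (GRCm38, minus strand), 134 bases long, aligned to Rnu2-10 over 121 bases with 90.9% identity. It had 28, 53 and 40 counts in UD-P19 replicates 1 to 3 and 1500, 1569 and 768 in P19N replicates 4 to 6, with a log2 fold change of 4.63 (SE 0.441, adjusted p = 1.1e-06 by edgeR), and 2 of its counts were unique. Gm23744 at chr1:155954574-155954722 (plus strand), 149 bases long, matched Rnu2-10 over 77 bases with 100% identity. It had 147, 64 and 162 counts in UD-P19 and 1659, 1647 and 856 in P19N, with a log2 fold change of 2.93 (SE 0.516, adjusted p = 0.000757 by edgeR) and 0 unique counts. Both were singled out after their values had been seen.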
